A study of Mus musculus with 6 samples.

Results

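The genes described here encode the integrins, the laminins and the proteins that build or bind the basement membrane. They were picked by symbol, 48 of the 53819 symbols in the deposited count table: 18 integrin alpha chains, 8 integrin beta chains, 11 laminin chains, and Nid1, Nid2, Hspg2, Agrn, Dag1, Fn1, Fbln1, Fbln2, Fbln5, Sparc and Tnc. Collagens were left out by the rule. The libraries came from 3D gastruloids, free-floating aggregates of the mouse embryonic stem cell line E14 that model the onset of axis formation. In the first group, 3 libraries, the aggregates had been treated with budesonide, a synthetic glucocorticoid, for 80 h. In the second group, also 3 libraries, they were untreated. The labels name no genetic change in either group, no dose, no vehicle for the untreated aggregates and no collection time for them, so a difference in these would be part of the comparison. Only 1 stem cell line was used, and nothing says that the replicates were separate cultures, so each p-value weighs a difference against a spread that may be only technical. The series title concerns cell-cell adhesion. The question put to the data here was how transcripts for adhesion to the matrix differed after budesonide.

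A basement membrane is a sheet of matrix under epithelia. Laminins are heterotrimers of an alpha, a beta and a gamma chain that polymerise on the cell surface, type IV collagen forms a second network, and nidogens, perlecan and agrin link or decorate both. Cells hold the sheet through integrins, dimers of an alpha and a beta chain, and through dystroglycan, and in the early mouse embryo the epiblast rests on a laminin-rich basement membrane that is breached at the primitive streak, while fibronectin lies between migrating mesoderm cells.

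Depth ranged over 5666168 to 7476862 counted reads a library. Levels are CPM, counts scaled to library size after TMM correction for composition, and 3 reads corresponded to 0.422 to 0.552 CPM. The 8 markers of pluripotent stem cells summed to 2263.5 to 2501.0 CPM in budesonide libraries and 1705.4 to 1726.7 CPM in untreated libraries. The 8 markers of streak and tailbud summed to 18.0 to 22.1 CPM in budesonide libraries and 279.0 to 295.7 CPM in untreated libraries. Both groups thus carried the stem cell markers, and the streak markers were low in every budesonide library. Of 17155 genes with enough reads for a test, 4917 passed an adjusted p of 0.05 (edgeR quasi-likelihood test, Benjamini-Hochberg), which is 28.7%. The passing genes were 15.2% of all tested genes in the higher and 13.5% in the lower direction. Among passing genes 52.9% were higher, against 38.6% with no scaling factors.

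Among the 48 genes, laminin alpha 5, laminin beta 1 and laminin alpha 4 transcripts were lower with budesonide, while fibronectin, nidogen 1 and nidogen 2 were higher. Of the integrins, the alpha 5, alpha 6, alpha 9 and alpha V chains were higher by 1.22-fold to 1.45-fold. Only Itgam had too few reads for a test. Of the 47 tested, 10 passed as higher and 7 as lower (36.2% of them), beside 28.7% of all tested genes. By direction this was 21.3% higher and 14.9% lower, beside the 15.2% and 13.5% given above. A passing change of at least 1.5-fold was seen in 8 of the 47 tested (17.0%), beside 13.0% of all tested genes. The 3 budesonide values lay entirely above or entirely below the 3 untreated values for 23 of the 47 (48.9%), beside 39.6% of all tested genes. The median log2 fold change, budesonide over untreated, was -0.09, beside -0.02 over all tested genes. Each share of the 48 genes lay somewhat above that of all genes, and the genes moved in both directions. In bulk RNA, fewer cells of a type and less RNA per cell cannot be told apart.

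**Figure D1:**
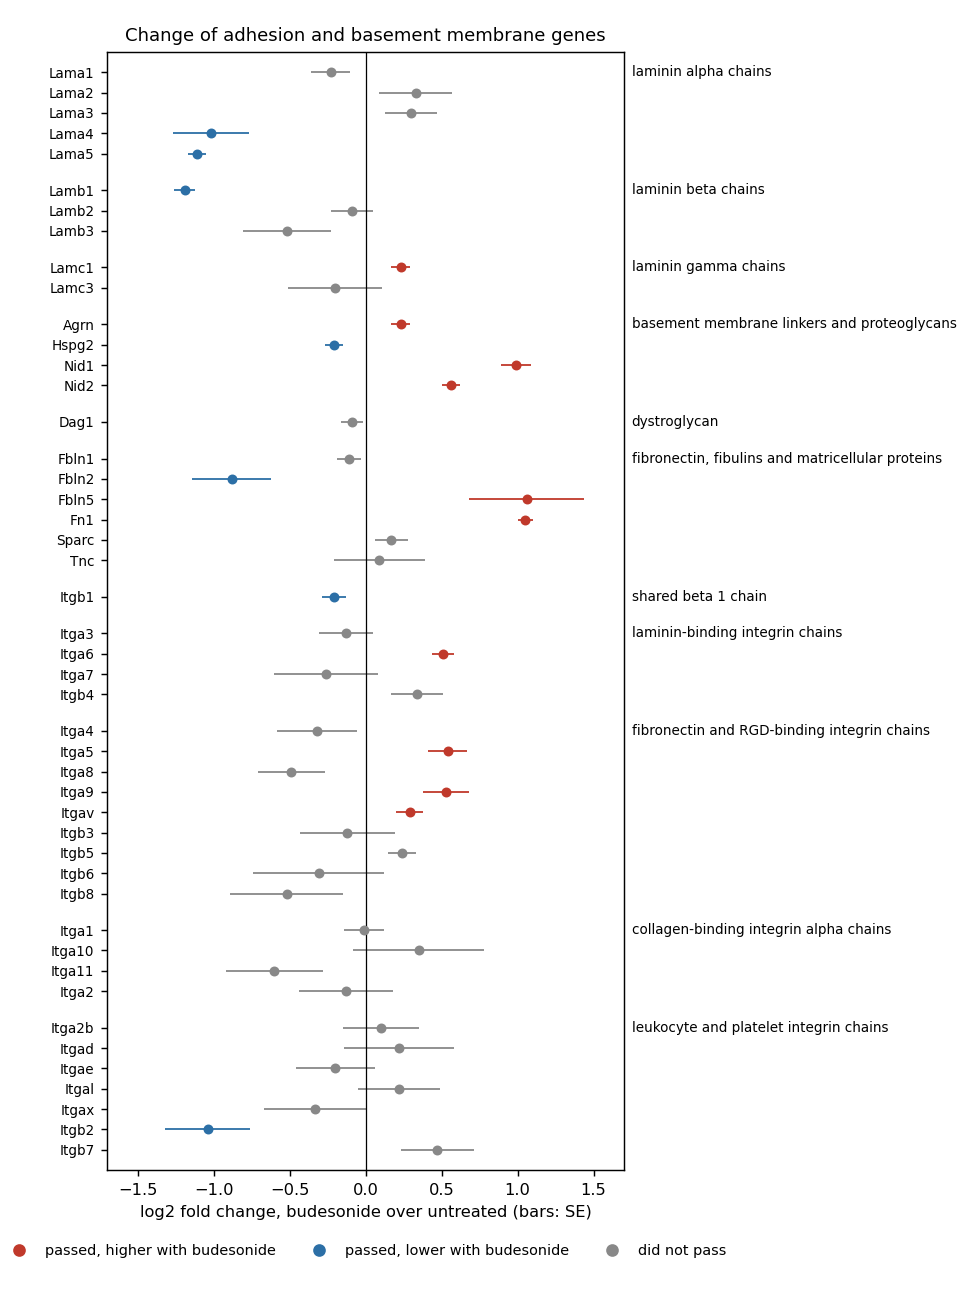
Log2 fold change (budesonide over untreated, horizontal axis) of the tested genes reported here, grouped by role, with bars for 1 SE; colour marks whether the gene passed an adjusted p of 0.05. Fn1 and Nid1 lie near 1, and Lama5, Lamb1, Lama4 and Itgb2 lie near or below -1.

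The laminin chains split by class. Lama5 encodes laminin alpha 5, the main alpha chain of the epiblast and of many epithelial basement membranes. It was at 286.4, 278.3 and 311.1 CPM in budesonide libraries, against 646.5, 609.4 and 634.1 CPM in untreated libraries. The groups were far apart and each varied little, and Lama5 fell 2.16-fold (log2 fold change -1.11 ± 0.06, SE; edgeR adjusted p = 6.53e-21). Lamb1 encodes the common beta chain that pairs with it. It was at 87.6, 87.1 and 77.4 CPM in budesonide libraries, against 179.4, 194.6 and 203.8 CPM in untreated libraries. Lamb1 fell 2.28-fold (-1.19 ± 0.07, SE; edgeR adjusted p = 3.06e-19), with no overlap between groups.

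Lamc1, the gamma chain found in most laminin trimers, moved the other way. It was at 354.0, 352.6 and 376.0 CPM in budesonide libraries, against 286.4, 319.6 and 313.6 CPM in untreated libraries. Every budesonide value lay above every untreated value, and the rise was 1.18-fold (0.23 ± 0.06, SE; edgeR adjusted p = 0.00118). Lama1, the alpha chain of the earliest embryonic basement membranes, was at 15.6, 16.0 and 16.4 CPM in budesonide libraries and 19.1, 19.0 and 18.2 CPM in untreated libraries. The groups did not overlap, but Lama1 did not pass the test (-0.23 ± 0.13, SE; edgeR adjusted p = 0.195). Lama4, a chain best known from vessels and mesenchyme, was at 4.09, 2.65 and 3.13 CPM in budesonide libraries, against 5.79, 6.89 and 7.54 CPM in untreated libraries. It fell 2.03-fold (-1.02 ± 0.25, SE; edgeR adjusted p = 0.00114), from 17 to 49 reads a library. The remaining chains did not pass, with log2 fold changes that ran from -0.52 for Lamb3 to 0.33 for Lama2. In all, 1 of 11 laminin chains rose and 3 fell (36.4% passing, beside 28.7% of all tested genes), with a median log2 fold change of -0.23, beside -0.02.

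Levels of different chains were compared as CPM per kilobase of annotated exon. The summed alpha chains were at 28.9 ± 1.33 CPM per kilobase with budesonide and 58.9 ± 1.60 without (SD, n = 3 each). Lama5 led them in both groups and made up 87.8% to 89.8% of the summed alpha chains in budesonide libraries and 93.5% to 94.2% in untreated libraries. Lamb1 made up 71.1% to 76.3% of the beta chains in budesonide libraries and 84.4% to 85.3% in untreated libraries, and Lamb2 was second. Lamc1 made up 96.3% to 97.1% of the gamma chains with budesonide and 95.3% to 95.9% without. Lama5, Lamb1 and Lamc1 were therefore the most abundant of their class in both groups, while Lama4 was a minor alpha chain.

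The balance between the transcripts of Lama5, Lamb1 and Lamc1 shifted, while assembled trimers were not measured. Per kilobase, the Lama5 to Lamc1 ratio was 0.588, 0.573 and 0.601 in budesonide libraries, against 1.64, 1.39 and 1.47 in untreated libraries. The Lamb1 to Lamc1 ratio was 0.206, 0.206 and 0.172 in budesonide libraries, against 0.522, 0.508 and 0.542 in untreated libraries. Lamb1 thus had the lowest level of the 3 chains in both groups, and the chain with the highest level was Lamc1 with budesonide and Lama5 without. The groups did not overlap for either ratio. For such values, 3 libraries against 3 cannot give an exact two-sided permutation p below 0.1, and both ratios gave it.

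**Figure D2:**
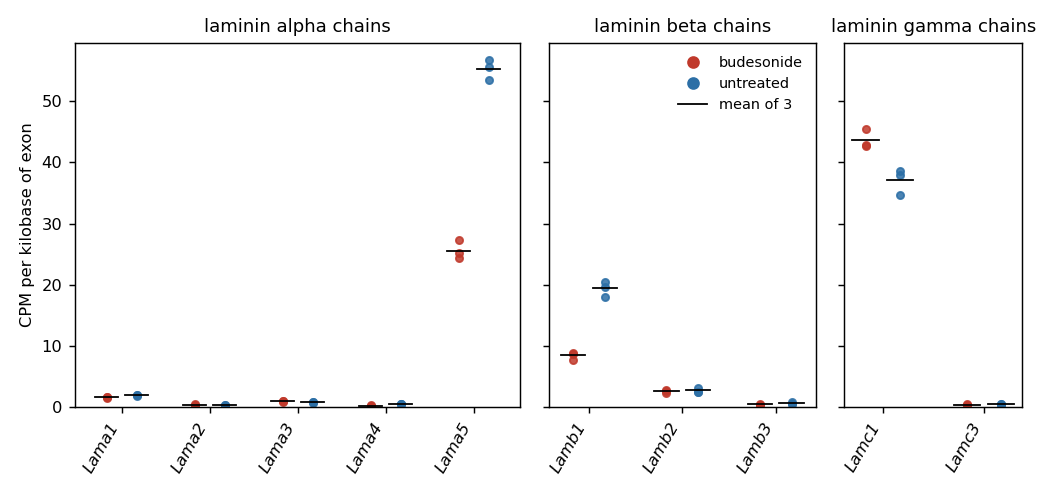
CPM per kilobase of exon (vertical axis, linear from 0) of the laminin chains reported here in each library, by chain class; points are libraries and lines the means of 3. Lama5 and Lamb1 are lower in all 3 budesonide libraries, Lamc1 is higher, and the other chains lie close to 0.

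Promoter sequences are shown for 2 laminin genes that fell, Lama5 and Lamb1, and for Nid1, which rose. RefSeq promoter windows (build GRCm38.p6) were at hand for 32 of the 48 genes, by symbol. Each run gives the 250 bases before the annotated start, 5′ to 3′ on the gene's strand, with capitals on every GC box (GGGCGG or its reverse complement CCGCCC). Lama5 lies on the minus strand (chr2:180225860-180226109), Lamb1 on the plus strand (chr12:31265043-31265292) and Nid1 on the plus strand (chr13:13437352-13437601).
Lama5: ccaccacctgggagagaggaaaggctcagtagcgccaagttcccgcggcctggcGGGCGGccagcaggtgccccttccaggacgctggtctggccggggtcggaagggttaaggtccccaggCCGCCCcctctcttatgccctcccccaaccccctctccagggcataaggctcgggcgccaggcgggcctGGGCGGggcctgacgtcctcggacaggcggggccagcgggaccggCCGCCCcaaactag
Lamb1: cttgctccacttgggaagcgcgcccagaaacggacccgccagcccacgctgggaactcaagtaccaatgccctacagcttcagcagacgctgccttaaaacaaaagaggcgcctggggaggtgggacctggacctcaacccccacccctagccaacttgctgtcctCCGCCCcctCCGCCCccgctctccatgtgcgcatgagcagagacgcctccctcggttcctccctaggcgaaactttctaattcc
Nid1: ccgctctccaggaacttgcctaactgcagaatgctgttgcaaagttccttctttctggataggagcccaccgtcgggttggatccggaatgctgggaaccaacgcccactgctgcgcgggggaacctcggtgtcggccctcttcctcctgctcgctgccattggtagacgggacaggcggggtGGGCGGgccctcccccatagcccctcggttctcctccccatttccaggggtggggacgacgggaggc
All of these windows are rich in G and C (72.4% for Lama5, 62.0% for Lamb1 and 64.4% for Nid1), with 4, 2 and 1 GC boxes. GC boxes stood in the windows of 16 of the 32 genes and in 32.7% of all 32851 windows of that length, both strands searched. The palindromic glucocorticoid response element, searched as GNACANNNTGTNC, stood in the window of 0 of the 32 genes and in 0.387% of all windows. AP-1 sites (TGANTCA) stood in that of 1 gene, Itgax, and in 6.75% of all windows. TCF sites (CTTTGAT or ATCAAAG) stood in 0 of the 32 and in 3.21% of all windows. Itgax held no GC box, so no 2 of these motifs overlapped in the windows of the 32 genes. The members were counted as genes with a match in any of their windows and the background as windows, so these shares are in unlike units. A match or its absence describes only these letters in these windows.

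All 4 genes of the basement membrane linkers and proteoglycans passed, 3 higher and 1 lower. Beside them, 28.7% of all tested genes passed, 15.2% higher and 13.5% lower. Nid1 encodes nidogen 1, which joins the laminin gamma 1 chain to type IV collagen. It was at 48.9, 50.2 and 55.7 CPM in budesonide libraries, against 27.0, 25.6 and 25.0 CPM in untreated libraries. Nid1 rose 1.99-fold (0.99 ± 0.10, SE; edgeR adjusted p = 1.13e-11) with no overlap between groups. Nid2, its paralog with overlapping functions, was at 295.3, 276.2 and 304.6 CPM in budesonide libraries, against 187.3, 208.4 and 197.5 CPM in untreated libraries. It rose 1.48-fold (0.56 ± 0.06, SE; edgeR adjusted p = 1.43e-10). Nid2 had the higher level per kilobase in both groups, 56.4 ± 2.80 CPM per kilobase with budesonide and 38.2 ± 2.03 without, and Nid1 had 7.43 ± 0.522 with budesonide and 3.72 ± 0.148 without (SD, n = 3 each). In the GENCODE M21 annotation 8.45% of the Nid2 exon length overlaps the opposite-strand gene Rtraf, and the strand setting of the counting is not given in the sources used here.

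The proteoglycans changed little and in opposite directions. Hspg2 encodes perlecan, a large heparan sulfate proteoglycan of basement membranes. It was at 210.5, 188.7 and 218.6 CPM in budesonide libraries, against 249.8, 225.5 and 236.5 CPM in untreated libraries. Hspg2 fell 1.15-fold (-0.21 ± 0.06, SE; edgeR adjusted p = 0.00858), a call lost in DESeq2 (adjusted p = 0.0929), without budesonide replicate 2 (edgeR adjusted p = 0.115) and without untreated replicate 1 (edgeR adjusted p = 0.0647). Agrn, which encodes agrin, a heparan sulfate proteoglycan that binds laminin and dystroglycan, rose 1.17-fold (0.23 ± 0.06, SE; edgeR adjusted p = 0.00292). It averaged 178.2 ± 8.34 CPM with budesonide and 151.6 ± 4.78 CPM without (SD, n = 3 each), and is named here after its values were seen. Dag1 encodes dystroglycan, a laminin receptor that is not an integrin. It was at 104.5, 97.9 and 105.7 CPM in budesonide libraries and 111.9, 108.4 and 106.5 CPM in untreated libraries. Dag1 did not pass (-0.09 ± 0.07, SE; edgeR adjusted p = 0.373), although its groups did not overlap and with no scaling factors it passed as lower (-0.17, edgeR adjusted p = 0.0442).

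Fibronectin showed the largest difference in CPM among the 48 genes. Fn1 encodes fibronectin, a matrix glycoprotein that cells assemble into fibrils through integrins that recognise its RGD tripeptide. It was at 1653.6, 1498.1 and 1706.6 CPM in budesonide libraries, against 818.6, 764.9 and 758.1 CPM in untreated libraries. Fn1 rose 2.07-fold (1.05 ± 0.05, SE; edgeR adjusted p = 1.41e-20), and the groups were far apart. It was the most abundant of the 48 genes per kilobase, at 138.6 ± 9.28 with budesonide and 66.8 ± 2.84 without (SD, n = 3 each). Reads of Fn1 made up 41.6% to 43.6% of the reads of the 48 genes in budesonide libraries and 23.7% to 25.5% in untreated libraries. The ratio of Fn1 to Lama5 per kilobase was 5.63, 5.25 and 5.35 in budesonide libraries, against 1.23, 1.22 and 1.17 in untreated libraries. An annotated antisense gene covers 2.5% of the Fn1 exon length.

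The fibulins, Sparc and tenascin C gave smaller or less certain differences. Fbln1, which encodes fibulin 1, a laminin- and fibronectin-binding glycoprotein, averaged 59.7 ± 3.78 CPM with budesonide and 64.7 ± 3.66 CPM without. Sparc, which encodes a collagen-binding matricellular protein, averaged 27.5 ± 0.830 CPM with budesonide and 24.5 ± 1.87 CPM without (SD, n = 3 each). Neither passed, with log2 fold changes of -0.11 ± 0.08 for Fbln1 (SE; edgeR adjusted p = 0.314) and 0.17 ± 0.11 for Sparc (SE; edgeR adjusted p = 0.281). Tenascin C, encoded by Tnc, averaged 3.92 ± 1.26 CPM with budesonide and 3.66 ± 1.45 CPM without and did not pass either. Fbln2 was lower (-0.88 ± 0.26, SE; edgeR adjusted p = 0.00805) and Fbln5, which takes part in elastic fibre assembly, higher (1.06 ± 0.38, SE; edgeR adjusted p = 0.0312). Both were named after their values were seen, and both rest on few reads, from 17 to 45 for Fbln2 and from 7 to 28 for Fbln5. DESeq2 passed neither (adjusted p = 0.0763 for Fbln2 and 0.136 for Fbln5), and Fbln2 was lost without untreated replicate 3 (edgeR adjusted p = 0.0875). Fbln5 was lost without budesonide replicate 1 (edgeR adjusted p = 0.270), untreated replicate 2 (0.0716) or untreated replicate 3 (0.108), and with no filter on low counts (0.0811).

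**Figure D3:**
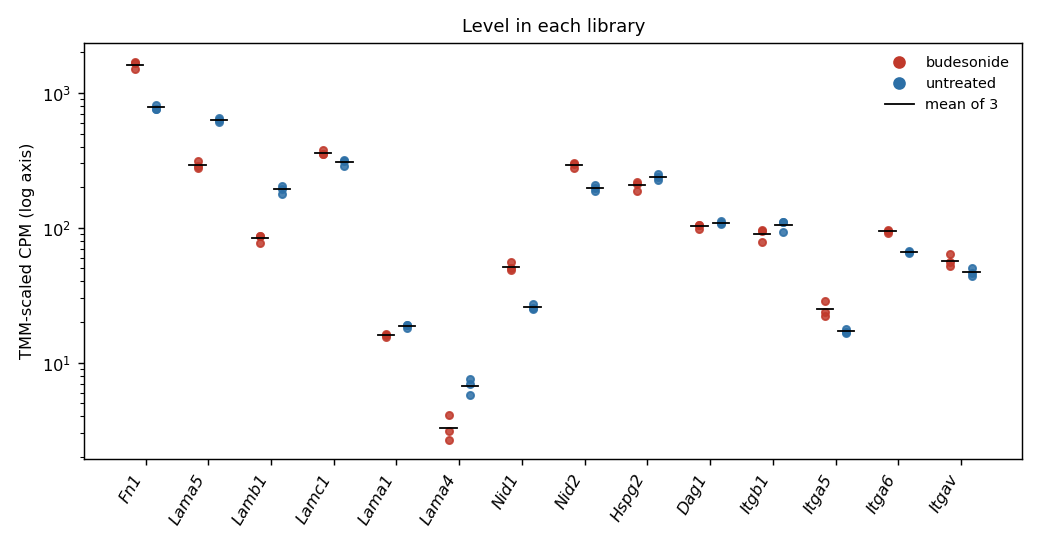
TMM-scaled CPM (vertical axis, log scale) of 14 genes in each library; points are libraries and lines the means of 3. Lama5 and Lamb1 sit lower in all budesonide libraries, Fn1, Nid1, Nid2, Itga5 and Itga6 sit higher, and the Itgb1 values of the groups overlap.

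Among the integrins, 4 of 17 tested alpha chains rose and 0 fell, while 0 of 8 beta chains rose and 2 fell (edgeR, adjusted p of 0.05). Together 24.0% of the 25 tested chains passed, beside 28.7% of all tested genes, and their median log2 fold change was -0.12, beside -0.02. The difference between alpha and beta chains was not tested. At an unadjusted threshold of 0.05 edgeR placed 1 alpha chain lower, Itga8, and 1 beta chain higher, Itgb5. DESeq2 passed neither Itgav nor Itgb1.

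Of 9 tested fibronectin and RGD-binding chains 3 rose and 0 fell, 3 of the 4 rises among the integrins. The 33.3% passing lay near the 28.7% of all tested genes, and the median log2 fold change was -0.12, beside -0.02. Itga5 encodes the alpha 5 chain, which with beta 1 forms the main fibronectin receptor. It was at 22.3, 28.7 and 23.9 CPM in budesonide libraries, against 16.6, 17.9 and 17.0 CPM in untreated libraries. Itga5 rose 1.45-fold (0.54 ± 0.13, SE; edgeR adjusted p = 0.000652), and its groups did not overlap. Itgav encodes the alpha V chain, which binds fibronectin and vitronectin with several beta chains. It was at 64.1, 51.8 and 55.5 CPM in budesonide libraries, against 50.5, 46.3 and 43.8 CPM in untreated libraries. The groups lay close together without overlapping, and Itgav rose 1.22-fold (0.29 ± 0.09, SE; edgeR adjusted p = 0.00978). That call was lost in DESeq2 (adjusted p = 0.0509), with no scaling factors (edgeR adjusted p = 0.0628) and without budesonide replicate 1 (edgeR adjusted p = 0.166). Itga9, a receptor chain for tenascin C and other ligands that was named after its values were seen, averaged 18.0 ± 1.29 CPM with budesonide and 12.5 ± 2.88 CPM without (SD, n = 3 each; 0.53 ± 0.15, SE; edgeR adjusted p = 0.00508). Itgb5, a partner of alpha V, did not pass (0.24 ± 0.09, SE; edgeR adjusted p = 0.0508), and its libraries overlapped. It passed with RLE size factors (edgeR adjusted p = 0.0461) and without budesonide replicate 2 (0.0263) or untreated replicate 1 (0.00464). The other chains of this kind, Itga4, Itga8, Itgb3, Itgb6 and Itgb8, did not pass, with log2 fold changes from -0.52 to -0.12.

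Of the laminin-binding chains only Itga6 passed, among 4 tested by edgeR. It encodes the alpha 6 chain, which pairs with beta 1 or beta 4 and is abundant in embryonic stem cells. Itga6 was at 94.8, 95.9 and 91.0 CPM in budesonide libraries, against 65.2, 66.9 and 66.1 CPM in untreated libraries. The replicates lay within a few CPM of each other, and the rise was 1.42-fold (0.51 ± 0.07, SE; edgeR adjusted p = 1.23e-07). Per kilobase Itga6 was the most abundant alpha chain, at 32.3% to 32.7% of the summed alpha chains in budesonide libraries and 27.4% to 27.7% in untreated libraries. Itga3, Itga7 and Itgb4 did not pass, with log2 fold changes of -0.13, -0.26 and 0.34.

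Itgb1, the beta 1 chain shared by the receptors for fibronectin, laminin and collagen, did not rise with its partners. It was at 95.1, 95.8 and 79.1 CPM in budesonide libraries and 93.6, 109.5 and 111.2 CPM in untreated libraries. The groups overlapped, and the test placed Itgb1 1.16-fold lower (-0.21 ± 0.08, SE; edgeR adjusted p = 0.0271). That call was lost in DESeq2 (adjusted p = 0.169) and without budesonide replicate 3 (edgeR adjusted p = 0.235), untreated replicate 2 (0.148) or untreated replicate 3 (0.189). Per kilobase the summed alpha chains were at 32.0 ± 0.793 CPM with budesonide and 26.6 ± 0.456 without, and the summed beta chains at 41.8 ± 0.663 with budesonide and 43.4 ± 0.465 without (SD, n = 3 each). The Itga6 to Itgb1 ratio per kilobase was 0.451, 0.453 and 0.521 in budesonide libraries, against 0.315, 0.276 and 0.269 in untreated libraries. The Itga5 to Itgb1 ratio was 0.194, 0.248 and 0.250 in budesonide libraries, against 0.147, 0.135 and 0.126 in untreated libraries. For both ratios all budesonide values lay above all untreated values, with an exact two-sided permutation p of 0.1, the smallest that 3 against 3 allows.

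The collagen-binding chains Itga1, Itga2, Itga10 and Itga11 did not pass, with log2 fold changes from -0.60 to 0.35. Itga1 was at 18.0 ± 0.832 CPM with budesonide and 18.3 ± 3.07 CPM without (SD, n = 3 each), the highest CPM of the 4. The leukocyte and platelet chains stood at 0.735 to 7.17 CPM in all libraries, where 2006 olfactory and vomeronasal receptor genes had a 95th percentile of 1.55 to 2.06 CPM in budesonide libraries and 1.68 to 1.83 CPM in untreated libraries. Of these 8 chains Itgb2, the leukocyte beta 2 chain, passed as lower (-1.04 ± 0.28, SE; edgeR adjusted p = 0.00297) on 16 to 45 reads a library, and is named here after its values were seen. Itgb2 was at 2.82, 2.35 and 2.94 CPM in budesonide libraries, against 6.86, 4.08 and 5.81 CPM in untreated libraries. In GENCODE M21 other genes on the same strand cover 68.7% of the Itgam and 33.5% of the Itga10 exon length, so their counts are uncertain. In all, 14 of the 48 genes were below 5 CPM in every library.

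**Figure D4:**
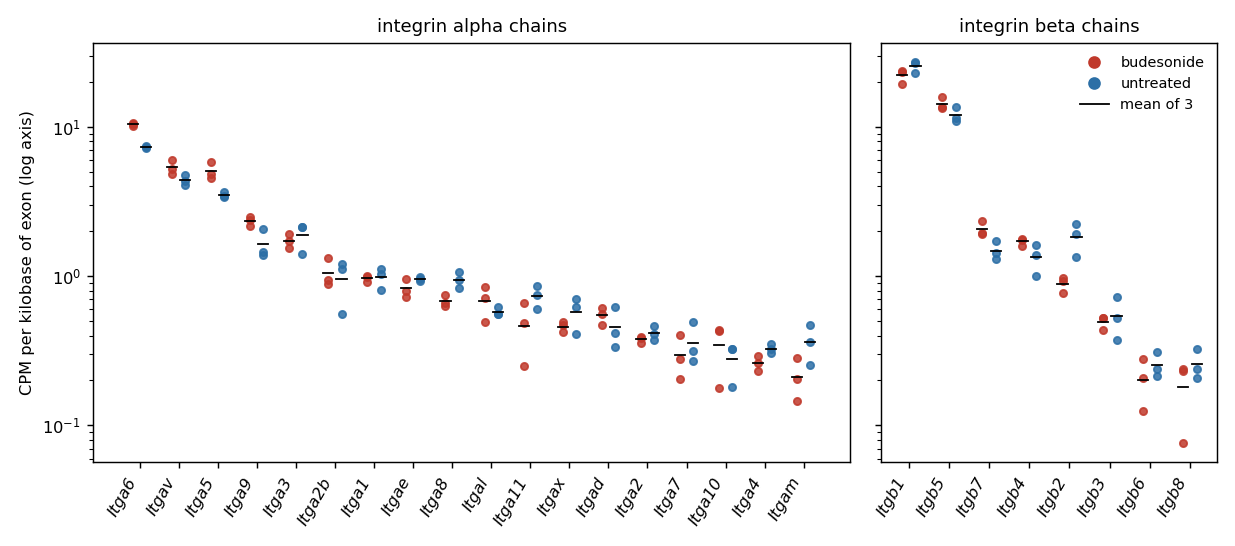
CPM per kilobase of exon (vertical axis, log scale) of the 18 integrin alpha and 8 beta chains in each library, sorted by mean level; points are libraries and lines the means of 3. Itga6, Itgav and Itga5 lead the alpha chains and are higher in budesonide libraries, Itgb1 and Itgb5 lead the beta chains, and spread widens below 1 CPM per kilobase.

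The partners of these genes in the basement membrane were followed in lists of their own. Beside their counts, 28.7% of all tested genes passed, 15.2% higher and 13.5% lower, with a median log2 fold change of -0.02. Of 6 collagen IV chains 0 rose and 3 fell (edgeR, adjusted p of 0.05; median log2 fold change -0.94). DESeq2 also passed 0 as higher, and every chain had a negative log2 fold change, from -1.78 to -0.28. Col4a1 was at 18.0, 15.6 and 18.4 CPM in budesonide libraries, against 55.5, 63.3 and 59.7 CPM in untreated libraries, and Col4a2 averaged 10.7 ± 2.34 CPM with budesonide and 26.2 ± 3.30 CPM without (SD, n = 3 each). Of 27 tested other basement membrane and matrix glycoproteins 3 rose and 10 fell (48.1% passing; median -0.53). Pxdn, which encodes peroxidasin, an enzyme that crosslinks collagen IV, fell 2.78-fold (-1.47 ± 0.11, SE; edgeR adjusted p = 3.84e-15). Fbn1, which encodes the microfibril protein fibrillin 1, fell 2.08-fold (-1.05 ± 0.12, SE; edgeR adjusted p = 5.29e-10). Spp1, which encodes osteopontin, an RGD-bearing integrin ligand, was at 65.2, 56.5 and 52.2 CPM in budesonide libraries, against 20.1, 19.3 and 15.4 CPM in untreated libraries. It rose 3.18-fold (1.67 ± 0.11, SE; edgeR adjusted p = 2.46e-17), and Ntn1, which encodes the laminin-related protein netrin 1, rose 1.32-fold (0.40 ± 0.07, SE; edgeR adjusted p = 1.87e-05).

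Inside the cell, integrin-linked adaptors moved in both directions. Of 26 tested 8 rose and 7 fell (57.7% passing, beside 28.7% of all tested genes; median log2 fold change 0.06). Tns3, which encodes tensin 3, an actin-binding adaptor of integrin tails, was at 378.7, 361.9 and 415.9 CPM in budesonide libraries, against 185.5, 200.2 and 204.7 CPM in untreated libraries (0.97 ± 0.06, SE; edgeR adjusted p = 8.28e-18). Actn1, which encodes the crosslinker alpha-actinin 1, rose 1.39-fold (0.48 ± 0.07, SE; edgeR adjusted p = 1.26e-07). Zyx, which encodes zyxin, a tension-sensitive focal adhesion protein, averaged 31.4 ± 3.25 CPM with budesonide and 79.4 ± 5.73 CPM without (SD, n = 3 each; -1.34 ± 0.09, SE; edgeR adjusted p = 5.73e-17). Src, a kinase of focal adhesions, fell 1.60-fold (-0.68 ± 0.10, SE; edgeR adjusted p = 4.82e-07). Over the list, log2 fold changes ran from 0.25 to 1.00 for the genes that rose and from -1.37 to -0.19 for those that fell.

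Of 20 tested genes for dystroglycan glycosylation and partners 4 rose and 2 fell (median 0.13), and the 30.0% passing lay near the 28.7% of all tested genes. Dtna, which encodes dystrobrevin alpha, rose 2.23-fold (1.16 ± 0.13, SE; edgeR adjusted p = 7.79e-10), and Utrn, which encodes utrophin, the link from dystroglycan to actin, rose 1.26-fold (0.34 ± 0.05, SE; edgeR adjusted p = 1.04e-06). Plec, which encodes the cytolinker plectin, fell 1.23-fold (-0.30 ± 0.06, SE; edgeR adjusted p = 0.000104).

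**Figure D5:**
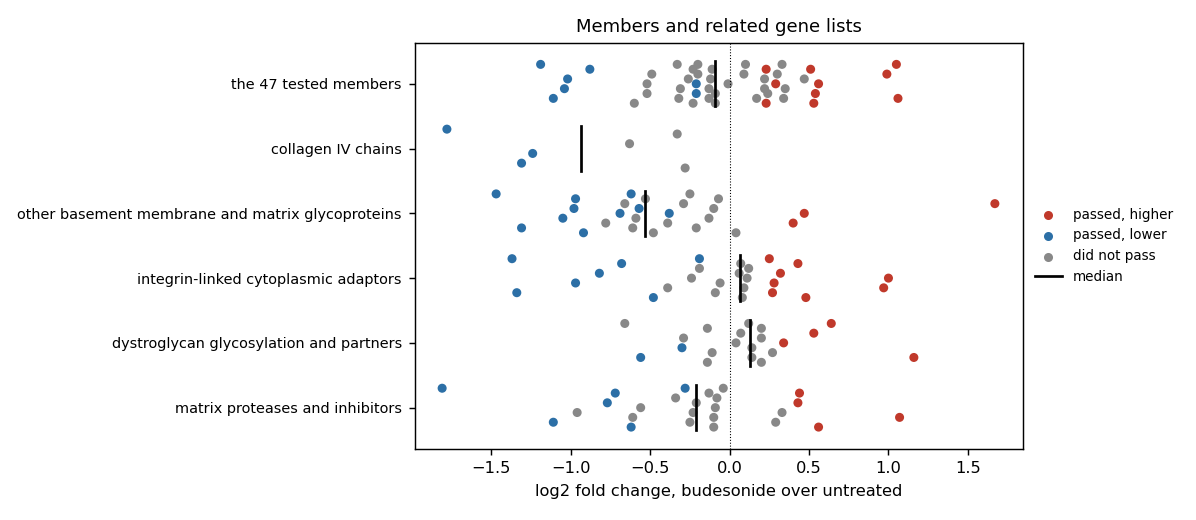
Log2 fold change (budesonide over untreated, horizontal axis) of every tested gene in the 47 members and in 5 related lists; colour marks genes that passed an adjusted p of 0.05 and black bars the medians. Collagen IV chains and the other basement membrane glycoproteins lie mostly below 0, while the members, adaptors and dystroglycan partners lie on both sides of it.

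Markers of other cells that make laminins, collagen IV or fibronectin were followed as well. Of 17 tested markers of endoderm, fibroblasts, endothelium and blood 1 rose and 3 fell (23.5% passing), below the 28.7% of all tested genes. The 12 markers of primitive, parietal and visceral endoderm summed to 20.0 to 23.3 CPM in budesonide libraries and 31.6 to 42.7 CPM in untreated libraries. Of 7 tested, 0 rose and 1 fell, Foxa2, a factor of endoderm and axial mesoderm, which was at 0.704, 0.441 and 1.29 CPM in budesonide libraries, against 14.2, 11.0 and 8.48 CPM in untreated libraries (edgeR adjusted p = 8.48e-14). The count of falls was 2 under upper quartile scaling, without scaling factors, or among genes averaging at least 5 CPM. Without Foxa2 the other 11 endoderm markers summed to 18.9 to 22.8 CPM in budesonide libraries and 23.1 to 31.8 CPM in untreated libraries, a sum added after the values were seen. Gata4, Gata6 and Sox17 did not pass (edgeR adjusted p of 0.954, 0.586 and 0.653). The defining factors Gata4 and Gata6 had between 4 and 22 reads in each library. The 8 fibroblast markers summed to 15.8 to 18.0 CPM in budesonide libraries and 22.9 to 25.5 CPM in untreated libraries, and 2 of 6 tested fell, Col1a2 and Thy1, which DESeq2 did not pass (adjusted p = 0.0731 and 0.0575). Col1a2 was also lost without untreated replicate 1 (edgeR adjusted p = 0.0696), and Thy1 without budesonide replicate 2 (0.0515). The 8 endothelial and blood markers summed to 30.4 to 36.5 CPM in budesonide libraries and 23.8 to 29.2 CPM in untreated libraries. Tek alone was at 17.9, 18.7 and 18.4 CPM in budesonide libraries and 14.9, 11.7 and 15.4 CPM in untreated libraries. It was the largest part of every sum and the 1 of 4 tested that passed as higher, a call lost in DESeq2 (adjusted p = 0.120). Tek was also lost without any 1 of the budesonide libraries (edgeR adjusted p from 0.0523 to 0.0580) and without untreated replicate 2 (0.223). No listed marker of these 3 kinds was at 0 reads in all 6 libraries. However, 2 endoderm markers, 1 fibroblast marker and 1 endothelial and blood marker stayed under 1 CPM in every library. The part of these cells in the laminin, collagen and fibronectin differences was not tested.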

How the data were processed

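Per the labels' protocols, a stranded kit for mRNA was used on gastruloid RNA. Cutadapt 2.5, STAR 2.7.5c, featureCounts 2.0, DESeq2 and build GRCm39 are named by the submitters' processing notes. The sources used here give neither the annotation version nor the strand setting of the counting. The authors deposited raw counts per gene symbol, 1 column per library. Groups came from the sample titles. The members and lists were chosen with earlier results of these data known.

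The deposited counts were tested with edgeR 4.0.16 (R 4.3.3). Genes with too few reads were dropped by filterByExpr, with 10 as minimum count and 15 as minimum total. After TMM scaling, a robust quasi-likelihood model with no term but group was fitted, and p-values were adjusted by Benjamini-Hochberg over all tested genes, at 0.05. Standard errors come from the quasi-likelihood F statistic. The test was checked on simulated counts. Libraries of a group differed by a chi-square of 1.43 to 3.14 per gene, so none repeated another. Exon lengths are union lengths in GENCODE M21, an annotation of another build, used for lengths and overlaps only.

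Values per library are given for members that passed with at least 1.5-fold at a mean of at least 5 CPM, for the 5 highest per kilobase and for 10 fixed partners. From each list, up to 2 higher and 2 lower genes of smallest adjusted p were taken. Some genes of these lists are not reported here. A second deposited table, of the same libraries after normalization, was not used here. Alternatives were DESeq2 1.42.0, other scalings and filters, a stricter threshold, a replicate block and leaving out each library.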

Additional observations from a re-analysis of the deposited data

How the results depend on the processing

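The counts of passing members were 10 higher and 7 lower. The lower count was 4 in DESeq2 and 4 with a mean of at least 5 CPM, where 27 members were tested; the count of all lower genes, 2316, was 1318 in DESeq2. Without 1 library each, 8 to 11 members were higher and 5 to 7 lower. Over the 14 alternatives, the named members gave 252 values on the same side of the threshold, 19 that lost and 5 that gained a call, and none changed sign. Fn1, Lama4, Lama5, Lamb1, Lamc1, Nid1, Nid2, Agrn, Itga5, Itga6, Itga9 and Itgb2 passed under every alternative that tested them. Same-numbered libraries deviated with correlations of 0.05, 0.07 and -0.03, beside -0.08 to 0.04 for the other pairs. With so few libraries, values near 0 cannot tell whether a number marks a shared culture or day. With the replicate block 11 members were higher and 7 lower, the added one being Itgb5 (edgeR adjusted p = 0.0459). Genes of the lists lost a call in 15 values and gained none; those alternatives were chosen after seeing the data. The dystroglycan list had 1 lower gene in DESeq2 and 4 with no scaling factors, and the protease list 3 lower in DESeq2. The depth leaves members below 5 CPM with few reads, and the causes of lost calls were not tested.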

Other observations

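Genes that cut or protect the matrix also moved in both directions. Of 25 tested matrix proteases and inhibitors 4 rose and 6 fell with budesonide (40.0% passing, beside 28.7% of all tested genes; median log2 fold change -0.21). Mmp2, a gelatinase that degrades collagen IV, was at 6.62, 6.33 and 4.23 CPM in budesonide libraries, against 13.1, 13.6 and 11.0 CPM in untreated libraries, and fell 2.16-fold (-1.11 ± 0.19, SE; edgeR adjusted p = 5.65e-06). Its inhibitor Timp2 was lower as well, at 1.07 ± 0.137 CPM with budesonide and 3.84 ± 0.682 CPM without (SD, n = 3 each; -1.81 ± 0.37, SE; edgeR adjusted p = 0.000124). The budesonide values of Timp2 lay below the 95th percentile of the receptor genes of the same libraries, 1.55 to 2.06 CPM. The membrane-bound disintegrin Adam19 rose 1.48-fold (0.56 ± 0.07, SE; edgeR adjusted p = 7.16e-09) and the stromelysin Mmp11 2.09-fold (1.07 ± 0.20, SE; edgeR adjusted p = 3.52e-05). Among paraxial mesoderm markers, only 2 of 6 had enough reads for a test, and Tcf15 rose 1.43-fold (0.51 ± 0.11, SE; edgeR adjusted p = 0.000365). The other tested marker, Pax3, did not pass (-0.15 ± 0.35, SE; edgeR adjusted p = 0.801). Tbx6, Msgn1, Meox1 and Foxc2 had too few reads for a test, so the rise was seen for Tcf15 alone and not for the list.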
